A study of Mus musculus with 4 samples.

Results

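Synaptic adhesion molecules were examined as 49 genes of 15 families, chosen by name for their known function and found in the deposited tables by NCBI gene number, out of 24532 gene identifiers. Bulk RNA of tissue enriched for granule cells (GCE tissue), taken from the cerebellar vermis, came from 2 wild-type (WT) mice and 2 heterozygous Kdm3b knockout (Kdm3b+/-) mice, with 1 library per mouse. All were adult males, and the WT mice were littermates of the mutants. The Kdm3b+/- mice carried a gene-trap vector in an intron of 1 Kdm3b allele in every cell, came from a single targeted ES cell line, and were backcrossed to C57Bl/6N and then crossed to C57Bl/6J. GCE tissue was cut by hand from slices of the vermis, while the sample labels name the tissue only as cerebellum. It is not a pure preparation of granule cells, and in bulk RNA fewer cells of a type cannot be told apart from less RNA per cell.

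Synaptic adhesion molecules span the synaptic cleft and bind partners on the facing membrane, which recruits vesicle release machinery on the presynaptic side and receptors and scaffolds on the postsynaptic side. Neurexins and the receptor tyrosine phosphatases of the LAR type are the best known presynaptic hubs, and each binds several families of postsynaptic ligands. In the cerebellar cortex, granule cell axons form the parallel fiber synapses on Purkinje cells, and granule cells also receive mossy fiber input and inhibition from Golgi cells, so adhesion genes expressed by granule cells can serve on either side of a synapse. KDM3B removes methyl groups from lysine 9 of histone H3, a mark of repressed chromatin.

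Levels are given in TPM, which is scaled to transcript length and to a fixed total per library. Depth was 4.92 and 5.74 gigabases aligned in the WT libraries, and 5.69 and 6.69 gigabases in the Kdm3b+/- libraries. Kdm3b itself had 9.10 and 11.0 TPM in the WT mice, and 8.30 and 7.90 TPM in the Kdm3b+/- mice. Both mutants lay below both WT mice, with a log2 difference of -0.27 ± 0.17 (SE) that did not pass the test (limma, Benjamini-Hochberg adjusted p = 0.424). Granule cell markers were present in every library, with summed levels of 3087 to 3741 TPM, and all 5 choroid plexus markers were below the filter on low values. Purkinje cell markers summed to 2223 TPM in WT mouse 1, and to 1020, 1239 and 1043 TPM in WT mouse 2 and in Kdm3b+/- mice 1 and 2, so WT mouse 1 stood apart. Of the 16 Purkinje cell markers 15 had a lower mean in the mutants (93.8%, beside 60.4% of all genes tested). Their median log2 difference was -0.51, beside -0.07. Between genotypes 7 (43.8%) did not overlap, all 7 lower, beside 51.3% of all genes tested, with 32.0% lower. An unadjusted p under 0.05 from limma was found for 7 of the 16 (43.8%), all lower. Among all genes tested that share was 17.0%, with 11.5% lower. Without WT mouse 1, 9 of the 16 were lower and the median was -0.11. Meningeal fibroblast markers summed to 66.7 and 60.2 TPM in the WT mice, against 37.9 and 40.8 TPM in the mutants. Of the 8 listed 6 were tested, and 4 had a lower and 2 a higher mean in the mutants. An unadjusted p under 0.05 from limma was found for 5 (83.3%, beside 17.0% of all genes tested), 4 lower and 1 higher.

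The comparison asked whether the loss of 1 Kdm3b allele went with another level of these genes in GCE tissue. No synaptic adhesion gene was differentially expressed (DEX, with an adjusted p below 0.05 and more than a 1.2-fold change). Of the 49 genes, 46 had a mean of at least 1 TPM over the 4 libraries and were tested, and 3 lay below that level. In all 13652 genes tested, 63 were DEX (0.461%), of which 16 were higher and 47 lower in the Kdm3b+/- mice. With a log2 difference over 1.2 in place of the fold, 33 genes were DEX. With median-ratio scaling of TPM, the split over all genes was 23 higher and 38 lower. The study called more genes DEX in the same libraries, with DESeq2. The absence of DEX adhesion genes thus holds for the limma test of TPM used here. The lowest adjusted p of a synaptic adhesion gene was 0.156, for Cadm4 (limma, Benjamini-Hochberg over all genes tested). The p-values rest on the spread between these mice, 2 per genotype, which limma moderates towards a trend over all genes. The SE of a gene is thus not its own spread alone. An exact two-sided permutation test could not go below 0.333.

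An unadjusted p under 0.05 was found for 6 of the 46 genes (13.0%), 1 higher and 5 lower in the Kdm3b+/- mice. Among all genes tested the share was 17.0%, with 5.47% higher and 11.5% lower. The order of these shares depended on the processing, with 8 adhesion genes (17.4%, beside 15.0% of all genes) after a correction of each library for genomic span, and 9 (19.6%, beside 15.3%) after one for transcript length and GC content. The 2 genotypes did not overlap in 19 adhesion genes (41.3%), of which 6 were higher and 13 lower. Among all genes tested 51.3% did not overlap, with 19.2% higher and 32.0% lower. Without WT mouse 1, 10 of the 46 adhesion genes (21.7%) had an unadjusted p under 0.05, beside 25.5% of all genes tested. The number was 3 (6.52%, beside 11.9%) without WT mouse 2, 1 (2.17%, beside 7.35%) without Kdm3b+/- mouse 1 and 6 (13.0%, beside 14.1%) without Kdm3b+/- mouse 2.

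The median log2 difference of the 46 genes was -0.04, with the middle of the distribution from -0.17 to 0.06, beside a median of -0.07 over all genes tested. The mean was lower in the mutants for 31 genes (67.4%), beside 60.4% of all genes. That direction depended on the scaling. With FPKM or median-ratio scaling 26 adhesion genes were higher and 20 lower, and with quantile normalization 24 were higher and 22 lower. It depended on WT mouse 2 as well, without which 24 were higher and 22 lower, while the median was -0.15 without WT mouse 1. For 35 genes (76.1%) the difference was under 1.2-fold in size, beside 65.5% of all genes.

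The data bound the size of a difference on the scale of log2(TPM + 1). The 95% interval of the log2 difference had a half-width of 0.31 to 0.57 in the 46 genes, with a median of 0.38. The interval reached a 2-fold difference in none of them, but only just for Cadm4, whose lower end was -0.9999. That bound is from the fit of all 4 libraries, and it rests on the pseudocount of 1. With 0.1 the intervals of Lrrtm4, Slitrk2, Lrfn4 and Cadm4 passed 2-fold, on the lower side. The smallest log2 difference of a DEX gene was 0.73 in size, and the differences of the adhesion genes ran from -0.62 for Cadm4 to 0.44 for Nlgn2.

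**Figure D1:**
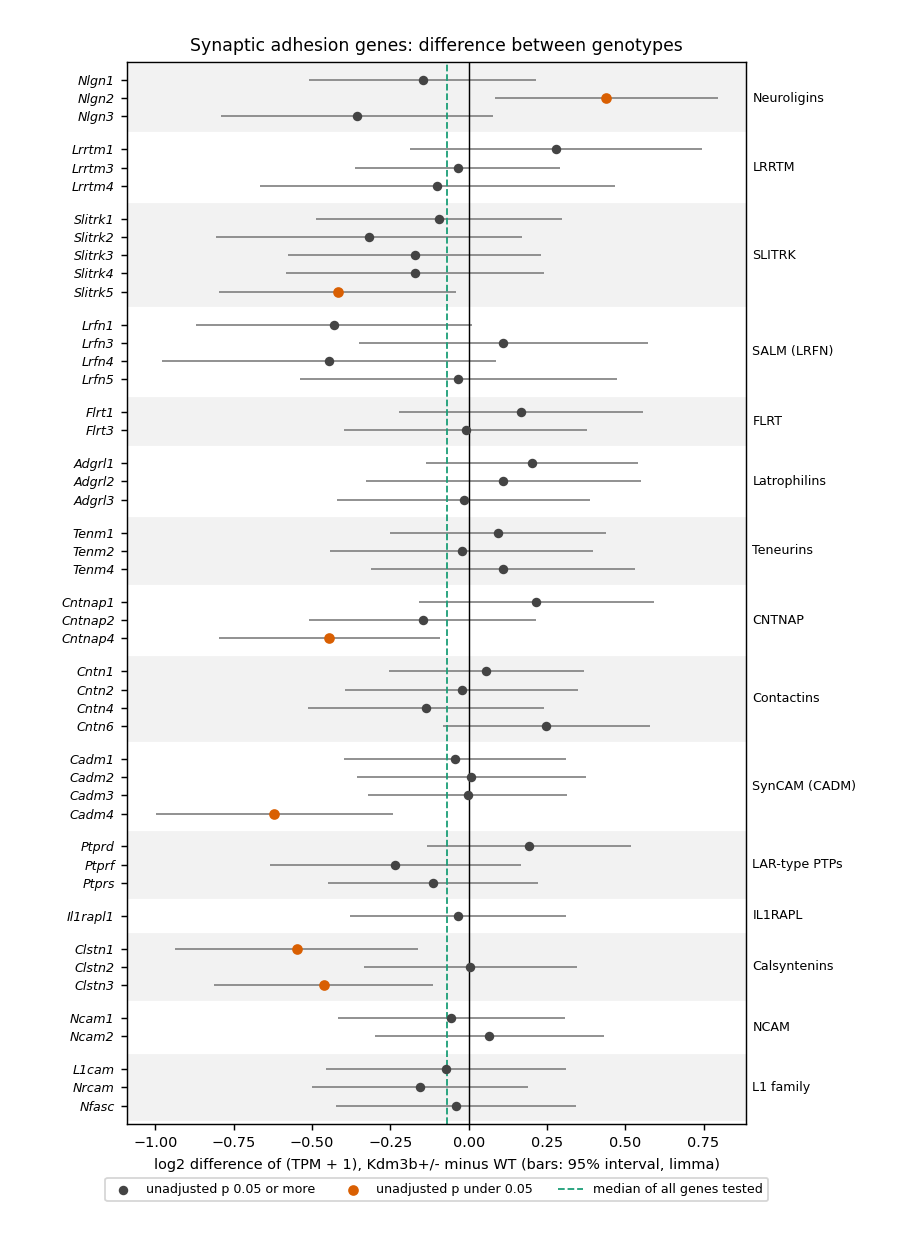
Log2 difference of TPM + 1 between Kdm3b+/- and WT mice (horizontal axis) for the 46 synaptic adhesion genes tested, by family, with bars for the 95% interval from limma. The 6 orange points have an unadjusted p under 0.05, none was DEX, and the dashed line marks the median of all genes tested at -0.07.

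The levels spanned a wide range. Clstn1, Cadm1, Lrrtm3, Clstn3 and Ncam1 were the 5 genes over 100 TPM on average, and together they held 51.2% to 57.5% of the summed TPM of the 49 genes. Between 20 and 100 TPM lay 14 genes, between 5 and 20 TPM lay 18, and between 1 and 5 TPM lay 9. Clstn1 was higher than 95.4% of the genes tested, and Ncam1 than 84.7%. The ranges over the 4 libraries of Cadm1 (174 to 231 TPM), Lrrtm3 (145 to 181 TPM) and Clstn3 (118 to 194 TPM) overlapped one another. Within every library, however, Cadm1 lay above both others. Clstn3 lay above Lrrtm3 in the WT mice and below it in the Kdm3b+/- mice. The order was not tested. The summed TPM of the 49 genes was 1576 and 1954 TPM in the WT mice, and 1519 and 1613 TPM in the Kdm3b+/- mice, so WT mouse 2 was the highest and the genotypes were set apart by less than the distance between the WT mice.

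**Figure D2:**
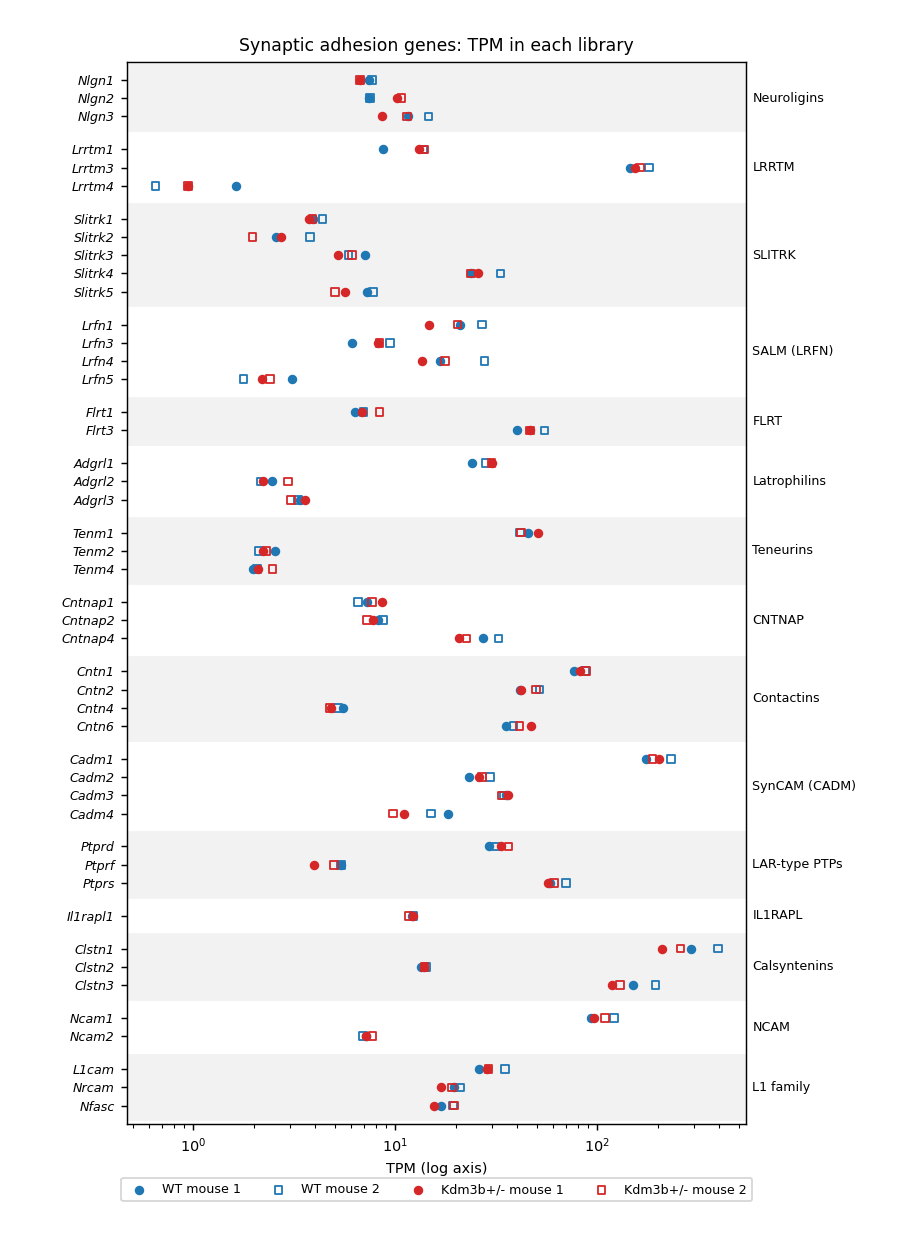
TPM (log axis) of the 46 synaptic adhesion genes tested in each of the 4 libraries, by family, with circles for mouse 1 and open squares for mouse 2 of each genotype. Clstn1, Cadm1, Lrrtm3, Clstn3 and Ncam1 lie highest, and within most families 1 member lies well above the others.

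Promoters are shown for Clstn1, Clstn3, Cadm4 and Nlgn2, those of the 6 genes with an unadjusted p under 0.05 whose RefSeq start lay at or upstream of the 5′ end of the authors' gene model. Each line gives the 250 bases before the RefSeq start on GRCm38.p6, read 5′ to 3′ on the strand of the gene. The windows are chr4:149586218-149586467 (plus strand) for Clstn1, chr6:124464785-124465034 (minus strand) for Clstn3, chr7:24481773-24482022 (plus strand) for Cadm4, and chr11:69837785-69838034 (minus strand) for Nlgn2, which starts 2935 bases upstream of the gene model in the files. Capitals mark matches on either strand to the GC box GGGCGG and the CCAAT box CCAAT.
Clstn1: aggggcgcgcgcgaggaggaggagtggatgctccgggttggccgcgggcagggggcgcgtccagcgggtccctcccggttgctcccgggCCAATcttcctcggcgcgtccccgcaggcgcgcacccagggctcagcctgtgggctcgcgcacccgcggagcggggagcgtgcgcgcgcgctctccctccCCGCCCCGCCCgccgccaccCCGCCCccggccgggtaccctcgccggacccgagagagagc
Clstn3: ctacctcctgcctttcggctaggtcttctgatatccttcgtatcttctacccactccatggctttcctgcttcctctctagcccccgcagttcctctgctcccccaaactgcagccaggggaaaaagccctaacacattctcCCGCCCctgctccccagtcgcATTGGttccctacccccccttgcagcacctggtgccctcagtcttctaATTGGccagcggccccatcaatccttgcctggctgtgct
Cadm4: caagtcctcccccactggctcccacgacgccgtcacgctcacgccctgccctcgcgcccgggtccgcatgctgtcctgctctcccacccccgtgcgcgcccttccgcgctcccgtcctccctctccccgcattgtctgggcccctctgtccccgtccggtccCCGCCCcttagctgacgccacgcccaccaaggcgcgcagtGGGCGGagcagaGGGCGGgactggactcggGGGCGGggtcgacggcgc
Nlgn2: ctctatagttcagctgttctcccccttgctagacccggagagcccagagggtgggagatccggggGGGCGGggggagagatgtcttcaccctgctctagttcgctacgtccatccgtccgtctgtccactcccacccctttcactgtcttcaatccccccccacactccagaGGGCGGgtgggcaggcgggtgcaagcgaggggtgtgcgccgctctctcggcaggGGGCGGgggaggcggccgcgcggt

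The 4 windows differ widely in base composition, with 38 CpG dinucleotides for Clstn1, 6 for Clstn3, 30 for Cadm4 and 18 for Nlgn2. Clstn1 has 3 matches to the GC box and 1 to the CCAAT box, Clstn3 has 1 and 2, and Cadm4 and Nlgn2 have 4 and 3 GC boxes and no CCAAT box. Of the 46 adhesion genes tested, 37 had a usable promoter entry, and for 35 of them the RefSeq start lay within 5 kb of the gene model. The GC box occurred in 14 of these windows (40.0%), beside 60.0% of the windows of 10540 genes tested, and the CCAAT box in 22.9%, beside 36.4%. The other motifs searched on both strands were TATAAA (8.57%, beside 6.24%), CACGTG (8.57%, beside 8.59%), TGACGTCA (2.86%, beside 2.84%) and the NRF1 motif (in 0 of 35, beside 1.66%). The median number of CpG dinucleotides was 10, beside 16 over the 10540 genes. A match is a description of the letters in these windows only, and none of these shares was tested.

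Neuroligins are postsynaptic ligands of neurexins, and Nlgn2 is the member found at inhibitory synapses. Nlgn2 had 7.38 and 7.47 TPM in the WT mice, and 10.1 and 10.7 TPM in the Kdm3b+/- mice. Both mutants lay above both WT mice, and the distance between mice of a genotype was small beside that between genotypes. The log2 difference was 0.44 ± 0.16 (SE), with an unadjusted p of 0.021 from limma and an adjusted p of 0.231. It ran from 0.40 to 0.48 when each library was left out in turn, and from 0.44 to 0.63 over the other scalings and corrections. Nlgn3, which occurs at excitatory and inhibitory synapses, was the highest neuroligin, with 11.5 and 14.6 TPM in the WT mice, and 8.55 and 11.5 TPM in the mutants. WT mouse 1 and Kdm3b+/- mouse 2 were nearly equal, and the log2 difference of -0.36 ± 0.19 had an adjusted p of 0.370. With each library left out it ran from -0.55 to -0.17. Nlgn1, found mainly at excitatory synapses, averaged 7.51 ± 0.18 TPM in the WT mice and 6.69 ± 0.03 TPM in the mutants (SD, n = 2 each), with an adjusted p of 0.665 from limma.

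The make-up of the neuroligin family differed between the libraries, though no neuroligin was DEX and the shares were not tested. Shares without overlap between genotypes also occurred in other families. Lrfn3, for example, held 13.1% and 14.3% of the SALM TPM in the WT mice, against 21.2% and 17.1% in the mutants. Nlgn2 held 28.1% and 25.1% of the summed neuroligin TPM in the WT mice, against 40.0% and 37.1% in the Kdm3b+/- mice. Nlgn3 held 43.9% and 49.1% in the WT mice, against 33.7% and 39.7% in the mutants, so it was the largest part of the family in both WT libraries and in 1 of 2 mutant libraries. The family sum itself, 26.3 and 29.7 TPM in the WT mice, and 25.4 and 28.9 TPM in the mutants, overlapped between genotypes.

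The calsyntenins are cadherin-related transmembrane proteins, of which Clstn3 binds neurexins from the postsynaptic side and Clstn1 links kinesin to transported vesicles. They held the highest summed level of the 15 families, with 456 and 604 TPM in the WT mice, and 341 and 402 TPM in the Kdm3b+/- mice. Clstn1, whose promoter window was rich in CpG dinucleotides, had 292 and 396 TPM in the WT mice, and 209 and 258 TPM in the mutants. Both mutants lay below both WT mice, and WT mouse 2 was the highest of the 4. The log2 difference was -0.55 ± 0.17 (SE), with an unadjusted p of 0.011 from limma and an adjusted p of 0.189. It ran from -0.77 to -0.33 with each library left out.

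Clstn3, whose promoter window held few CpG dinucleotides, had 150 and 194 TPM in the WT mice, and 118 and 130 TPM in the mutants. Again both mutants lay below both WT mice and WT mouse 2 was the highest. The log2 difference was -0.46 ± 0.15, with an unadjusted p of 0.015 from limma and an adjusted p of 0.210, and it ran from -0.65 to -0.28 with each library left out. Clstn2, the least abundant calsyntenin, averaged 13.9 TPM in both genotypes. The share of Clstn1 in the family, 64.1% and 65.5% in the WT mice, against 61.3% and 64.2% in the mutants, overlapped between genotypes.

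Leucine-rich repeat transmembrane proteins (LRRTMs) are further postsynaptic ligands, of which LRRTM1 binds neurexins and LRRTM4 binds heparan sulfate proteoglycans. Lrrtm3 made up 91.6% to 93.3% of the family in the 4 libraries, with 145 and 181 TPM in the WT mice, and 154 and 162 TPM in the Kdm3b+/- mice. The mutants lay between the WT mice, with a log2 difference of -0.04 and a 95% interval from -0.36 to 0.29. Lrrtm1 averaged 11.2 ± 3.49 TPM in the WT mice and 13.5 ± 0.55 TPM in the mutants. Lrrtm4 was low, at 1.14 ± 0.70 TPM in the WT mice and 0.944 TPM in the mutants (SD, n = 2 each).

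**Figure D3:**
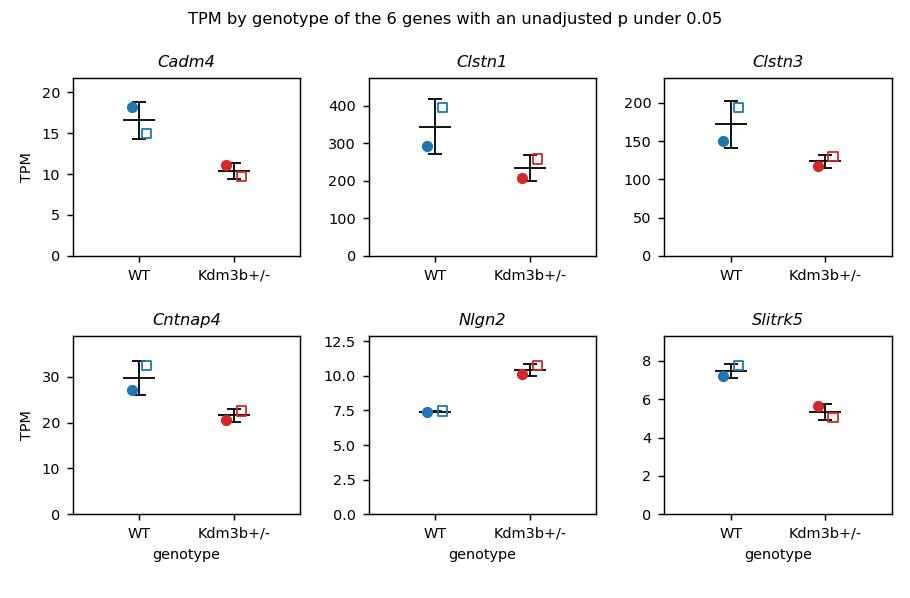
TPM (vertical axis, from 0) by genotype of the 6 synaptic adhesion genes with an unadjusted p under 0.05, with circles for mouse 1, open squares for mouse 2, and bars for the mean ± SD (n = 2). In each gene the 2 genotypes do not overlap, with Nlgn2 higher and the other 5 lower in the Kdm3b+/- mice, and no adjusted p was below 0.156.

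The receptor tyrosine phosphatases PTPσ, PTPδ and LAR, encoded by Ptprs, Ptprd and Ptprf, organize presynaptic terminals. Ptprs was the highest, with 58.2 and 70.0 TPM in the WT mice, and 56.8 and 61.1 TPM in the Kdm3b+/- mice. The genotypes overlapped, and the log2 difference was -0.11 with a 95% interval from -0.45 to 0.22. Ptprd averaged 30.3 ± 1.60 TPM in the WT mice and 34.8 ± 2.17 TPM in the mutants, and Ptprf 5.40 ± 0.01 TPM and 4.46 ± 0.69 TPM (SD, n = 2 each). Ptprd was above both WT mice in both mutants and Ptprf below, and neither passed the test (adjusted p of 0.515 and 0.517 from limma). The share of Ptprd in this family was 31.5% and 29.4% in the WT mice, against 35.4% and 35.5% in the mutants.

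SLITRK proteins, some SALMs and IL1RAPL1 are postsynaptic ligands of these phosphatases. All 5 Slitrk genes had a lower mean in the Kdm3b+/- mice, with log2 differences from -0.42 to -0.10, beside 60.4% of all genes tested with a lower mean. The direction turned for Slitrk1 with the transcript length and GC correction (0.02) and for Slitrk4 without WT mouse 2 (0.07). Slitrk5 had 7.20 and 7.75 TPM in the WT mice, and 5.65 and 5.04 TPM in the mutants. Both mutants lay below both WT mice, and the log2 difference of -0.42 ± 0.17 had an unadjusted p of 0.033 and an adjusted p of 0.259 from limma. Slitrk4, the most abundant, had 23.6 and 33.1 TPM in the WT mice, and 25.8 and 23.7 TPM in the mutants. WT mouse 2 alone was high, and the other 3 libraries were alike. Slitrk1, Slitrk2 and Slitrk3 had log2 differences of -0.10, -0.32 and -0.17, with means of 4.14, 3.17 and 6.48 TPM in the WT mice.

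SALM genes (Lrfn) encode leucine-rich repeat proteins, several of which bind the postsynaptic scaffold PSD-95. Lrfn1 had 20.9 and 26.9 TPM in the WT mice, and 14.8 and 20.3 TPM in the Kdm3b+/- mice. The gap between the genotypes was narrow beside the distance within each, and the log2 difference of -0.43 ± 0.20 had an adjusted p of 0.303 from limma. With each library left out it ran from -0.65 to -0.21. Lrfn4 averaged 22.1 ± 7.78 TPM in the WT mice and 15.6 ± 2.92 TPM in the mutants, Lrfn3 averaged 7.74 and 8.27 TPM, and Lrfn5 averaged 2.43 and 2.29 TPM. Lrfn2 was below the filter, at 0.075 and 0.027 TPM in the WT mice, listed at 0 in Kdm3b+/- mouse 1, and at 0.022 TPM in mouse 2. Il1rapl1, a member of the interleukin 1 receptor family that binds PTPδ, had 12.1 and 12.3 TPM in the WT mice, and 12.2 and 11.6 TPM in the mutants, with no gap between the genotypes.

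Latrophilins (Adgrl) are adhesion G protein-coupled receptors that bind FLRT proteins and teneurins across the cleft. In each of the 3 families 1 gene dominated, with Adgrl1 at 80.5% to 83.9% of the latrophilin TPM, Flrt3 at 83.0% to 87.6% of the FLRT TPM, and Tenm1 at 88.9% to 91.4% of the teneurin TPM. Adgrl1 had 24.1 and 28.0 TPM in the WT mice, and 30.1 and 30.0 TPM in the Kdm3b+/- mice. The mutants lay just above the WT mice, and the log2 difference of 0.20 had a 95% interval from -0.14 to 0.54. Flrt3 had 39.9 and 54.7 TPM in the WT mice, and 46.5 and 46.3 TPM in the mutants. The mutants lay between the WT mice, and the log2 difference was -0.01 (-0.40 to 0.38).

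Tenm1 had 45.2 and 41.5 TPM in the WT mice, and 51.0 and 42.0 TPM in the mutants, and the genotypes overlapped. Adgrl2, Adgrl3, Tenm2, Tenm4 and Flrt1 had log2 differences of 0.11, -0.02, -0.02, 0.11 and 0.17. Flrt2 and Tenm3 were below the filter. Flrt2 had 0.725 and 0.832 TPM in the WT mice, and 1.18 and 1.14 TPM in the mutants, which did not overlap. Tenm3 had 0.414 and 0.648 TPM in the WT mice, and 0.477 and 0.495 TPM in the mutants, which did.

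Contactins are GPI-anchored immunoglobulin proteins of the axon membrane, and the CNTNAP (Caspr) proteins are neurexin-related partners of them. Cntnap4, which has been linked to GABA release, was the highest of its family, with 27.2 and 32.4 TPM in the WT mice, and 20.6 and 22.5 TPM in the Kdm3b+/- mice. Both mutants lay below both WT mice, and the log2 difference of -0.44 ± 0.16 had an unadjusted p of 0.019 and an adjusted p of 0.222 from limma. It ran from -0.57 to -0.32 with each library left out. Cntnap1, a protein of the paranodal junction with myelin, averaged 6.88 ± 0.46 TPM in the WT mice and 8.15 ± 0.68 TPM in the mutants, and Cntnap2, which gathers potassium channels beside the node, averaged 8.41 ± 0.35 TPM and 7.50 ± 0.36 TPM (SD, n = 2 each). The genotypes did not overlap in either, and neither passed the test (adjusted p of 0.522 and 0.665 from limma). Cntnap4 held 63.9% and 68.0% of the family TPM in the WT mice, against 55.7% and 60.2% in the mutants.

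Cntn1, the most abundant contactin, had 76.5 and 86.8 TPM in the WT mice, and 82.1 and 87.7 TPM in the Kdm3b+/- mice. The genotypes overlapped, and the log2 difference was 0.06 (-0.26 to 0.37). Cntn2 (TAG-1) averaged 46.5 and 45.6 TPM in the WT and mutant mice. Cntn6 averaged 36.8 ± 2.23 TPM in the WT mice and 44.0 ± 4.05 TPM in the mutants, above both WT mice in both mutants, with an adjusted p of 0.410 from limma. Cntn4 averaged 5.36 and 4.79 TPM, with a log2 difference of -0.14.

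**Figure D4:**
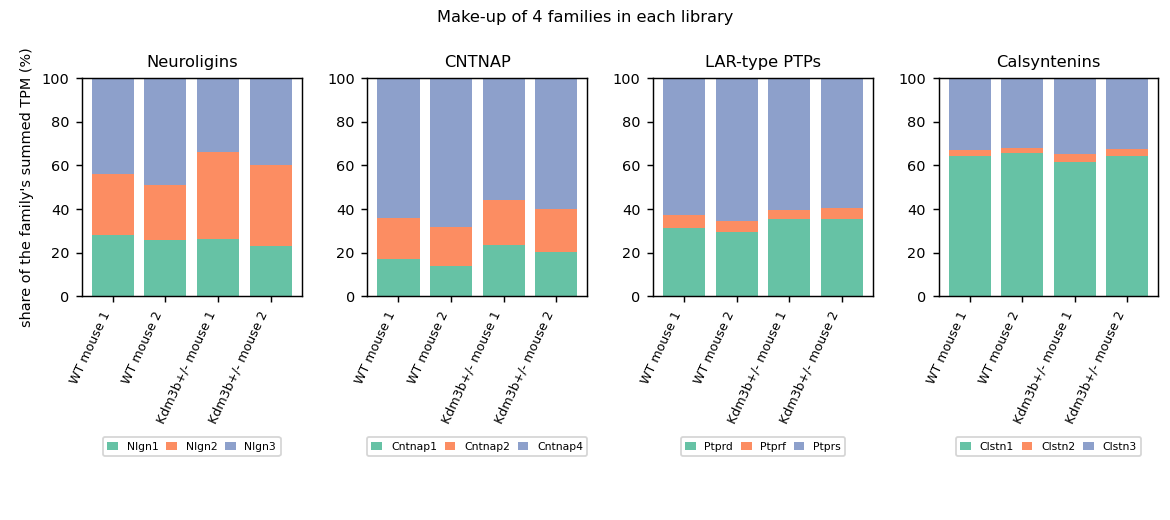
Share of each gene in the summed TPM of its family (percent, stacked bars) in the 4 libraries, for neuroligins, CNTNAP genes, LAR-type phosphatases and calsyntenins. Nlgn2 takes 37.1% and 40.0% of the neuroligin TPM in the Kdm3b+/- mice, against 25.1% and 28.1% in the WT mice, while the share of Clstn1 overlaps between genotypes.

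SynCAMs (Cadm) are immunoglobulin proteins that bind one another in trans, and Cadm4 is also the glial partner of axonal Cadm3 in peripheral myelin. Cadm4 had 18.1 and 15.0 TPM in the WT mice, and 11.1 and 9.71 TPM in the Kdm3b+/- mice. Both mutants lay below both WT mice, and WT mouse 1 was the highest of the 4. The log2 difference was -0.62 ± 0.17 (SE), with an unadjusted p of 0.0048 and an adjusted p of 0.156 from limma. It ran from -0.75 to -0.49 with each library left out. The summed TPM of oligodendrocyte markers overlapped between genotypes (17657 and 16151 TPM in the WT mice, 14994 and 17937 TPM in the mutants), as did those of astrocytes and Bergmann glia (2316 and 2073 TPM, 2031 and 2330 TPM). Single markers differed more than these sums. An unadjusted p under 0.05 was found for 7 of 11 astrocyte and Bergmann glia markers (63.6%), 3 higher and 4 lower, with 2 DEX. It was found for 3 of 10 oligodendrocyte markers (30.0%), 2 higher and 1 lower, with 1 DEX. Over all genes tested the shares were 17.0% and, for DEX, 0.461%. The part of other cell types, the Purkinje cell and meningeal markers included, in the differences of Cadm4, Clstn1, Clstn3, Cntnap4, Nlgn2 and Slitrk5 was not tested.

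Cadm1 was the second most abundant of the 49 genes, with 174 and 231 TPM in the WT mice, and 202 and 188 TPM in the mutants. The mutants lay between the WT mice, with a log2 difference of -0.04 (-0.40 to 0.31). Cadm2 averaged 26.3 TPM in both genotypes, and Cadm3 averaged 34.8 and 34.7 TPM in the WT and mutant mice. Cadm3 was the only 1 of the 49 genes that shared exon bases with another gene tested, over 5.40% of its exon length.

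Ncam1 and L1cam encode homophilic adhesion proteins of the immunoglobulin superfamily that act in axon growth and bundling. Ncam1 had 93.2 and 121 TPM in the WT mice, and 95.7 and 109 TPM in the Kdm3b+/- mice, within the WT range. L1cam had 26.1 and 34.9 TPM in the WT mice, and 28.3 and 29.0 TPM in the mutants, also within the WT range. Ncam2 averaged 7.05 and 7.43 TPM in the WT and mutant mice. Nrcam and Nfasc, which are L1 family proteins of the axon initial segment and node, had log2 differences of -0.16 and -0.04, and their means were 20.1 and 18.1 TPM in the WT mice.

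Other genes of trans-synaptic adhesion, a list of 62 neurexins, cerebellins, netrin-G ligands, UNC5 receptors, LGI and ADAM proteins and intracellular partners, were counted in the same way. Of the 45 tested, 0 were DEX in the limma test, 5 (11.1%) had an unadjusted p under 0.05, 2 higher and 3 lower, and 23 (51.1%) did not overlap between genotypes, beside 17.0% and 51.3% of all genes tested. The 5 became 11 with quantile normalization, 10 with the span correction or the transcript length and GC correction, and 8 with FPKM, with median-ratio scaling or without WT mouse 1. They became 3 without WT mouse 2 and also 3 without Kdm3b+/- mouse 1. Their median log2 difference was -0.07. Cbln1 is the secreted bridge between neurexins and the delta glutamate receptor at parallel fiber synapses. It had 391 and 347 TPM in the WT mice, and 476 and 507 TPM in the Kdm3b+/- mice. Its adjusted p from limma was 0.178. The study names Cbln1 among its DEX genes, from a DESeq2 test of the same libraries. Cbln3, its granule cell partner, had 971 and 1229 TPM in the WT mice, and 769 and 851 TPM in the mutants, with an adjusted p of 0.196. Both cerebellins had genotypes that did not overlap, in opposite directions, with log2 differences of 0.41 ± 0.12 and -0.43 ± 0.14.

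Unc5a, a netrin receptor of a family that also binds FLRT proteins, had 18.5 and 31.2 TPM in the WT mice, and 13.7 and 14.5 TPM in the mutants, and WT mouse 2 stood well above the other 3. Epb41l3, a scaffold protein that binds SynCAM1 and the CNTNAP proteins, had 141 and 170 TPM in the WT mice, and 105 and 126 TPM in the mutants. Ntng1, which encodes netrin-G1, had 5.89 and 5.98 TPM in the WT mice, and 8.38 and 7.95 TPM in the mutants. None of these 3 overlapped between genotypes, and their adjusted p-values from limma were 0.183, 0.233 and 0.261.

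The genes themselves are long. The median genomic span of the adhesion genes tested was 111 kb, beside 21.1 kb for all genes tested, and 23 of the 46 fell in the longest 10% of all genes tested, from 122 kb up to 2271 kb for Ptprd. Among these long genes the adhesion genes varied little, with log2 differences from -0.44 for Cntnap4 to 0.25 for Cntn6, a median of -0.03 and an SD of 0.14 across genes. Only Cntnap4 among them had an unadjusted p under 0.05 (4.35%, beside 11.3% of all genes that long). The other 23 adhesion genes had a median of -0.11 and an SD of 0.29, and 5 of them (21.7%, beside 17.6% of all other genes) had an unadjusted p under 0.05. All genes tested had an SD of 0.25 in the longest 10% and 0.32 in the rest, so the narrower spread of the long genes held over all genes as well.

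The log2 difference of all genes moved with span. Its median was 0.15 in the shortest of 10 equal groups by span, between -0.13 and -0.12 from the fifth to the eighth group, and -0.07 in the longest. With each library corrected for span, 28 adhesion genes were higher and 18 lower in the Kdm3b+/- mice, and their median was 0.05, beside 0.01 over all genes. The 6 genes with an unadjusted p under 0.05 kept their direction under that correction and under each of the other scalings. They were chosen by their p in these same libraries, so this is not separate support.

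**Figure D5:**
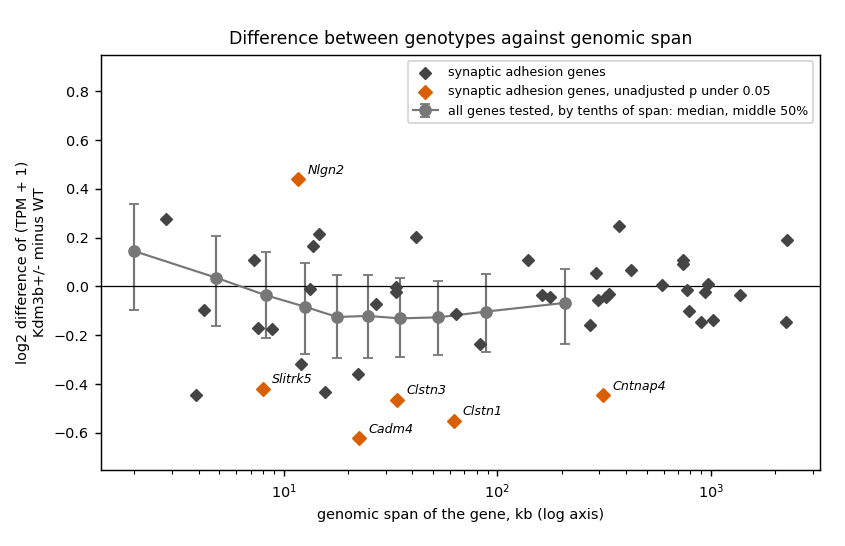
Log2 difference of TPM + 1 between Kdm3b+/- and WT mice (vertical axis) against genomic span in kb (log axis), with diamonds for the synaptic adhesion genes, and grey points and bars for the median and middle 50% of all genes tested in 10 groups by span. The 23 adhesion genes of the longest group lie between -0.44 and 0.25, and 5 of the 6 genes with an unadjusted p under 0.05 lie outside it.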

How the data were processed

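Libraries were grouped by genotype from the sample labels. The authors trimmed low-quality bases, used STAR and StringTie, and deposited coverage, FPKM and TPM per gene. Deposited coverage is a read depth per gene, which was not in proportion to TPM for every gene. FPKM was scaled by the authors to length and mapped fragments, and TPM was scaled by the authors to length and library total. Genome build, annotation, strandedness and tool versions are not given in the sources used here. A RefSeq table of GRCm38 gave symbols for 24462 of 24532 identifiers. Of the identifiers found in that table, 99.6% had the same chromosome. The same chromosome and a start coordinate within 1 kb were found for 90.4%. Aligned bases were computed from the most common ratio of coverage to FPKM in each library. That ratio held in 75.5% to 75.8% of the rows with an FPKM above 0. No read counts were recovered.

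TPM was summed per identifier, and log2(TPM + 1) of genes that averaged 1 TPM or more was tested with limma version 3.58.1 (eBayes with trend, two-sided) in R version 4.3.3, with Benjamini-Hochberg adjustment over 13652 genes. The methods of the study state the DEX threshold of 1.2 on the log2 scale, which was read here as a fold, since changes smaller than that log2 value are listed as DEX there. Differences are on the log2(TPM + 1) scale, which understates those of low genes. The script was tested on simulated data. Robust fits used statmod (1.5.0). Python (3.11.15), pandas (2.3.3), NumPy (2.4.6) and Matplotlib (3.10.9) made the tables and figures.

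The genes and lists were chosen with earlier results of these data known. Every adhesion gene is named, and values per library are given for those with an unadjusted p under 0.05, the 5 highest, those below the filter and the highest of each family, as well as for Kdm3b and the 5 partner genes with the lowest p.

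The alternatives were a pseudocount of 0.1, FPKM, no filter or one at 5 TPM, quantile normalization, median-ratio scaling, scaling that left out the 20 highest genes, the highest entry per identifier, eBayes without trend or robust, a replicate block, a loess correction for genomic span with and without that block, the same for transcript length and GC content, each library left out, and other thresholds.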

Additional observations from a re-analysis of the deposited data

How the results depend on the processing

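The count of 0 DEX adhesion genes was also found under a pseudocount of 0.1, FPKM, either other filter, median-ratio scaling, quantile normalization, the highest entry per gene, scaling that left out the 20 highest genes, eBayes without trend, robust eBayes, the span correction, the transcript length and GC correction, each library left out, and both other thresholds. The transcript length and GC correction was chosen after seeing the data. The unadjusted p was under 0.05 in 6 adhesion genes, in 8 with the span correction (17.4%, beside 15.0% of all genes), in 9 with the length and GC correction (19.6%, beside 15.3%), in 10 without WT mouse 1 (21.7%, beside 25.5%), in 3 without WT mouse 2 (6.52%, beside 11.9%) and in 1 without Kdm3b+/- mouse 1 (2.17%, beside 7.35%). With a library left out, the lone library of a genotype was assumed to vary like the others. The median log2 difference of the adhesion genes ran from -0.15 to 0.025 with each library left out, and the lowest value was found without WT mouse 1. Of 46 adhesion genes, 23 changed sign under at least 1 alternative, and none of the 6 with an unadjusted p under 0.05 did. The 6 were chosen by p in these libraries, and their genotypes did not overlap, so leaving 1 library out could not turn their sign. Over all genes the 63 DEX genes became 38 with FPKM, 1 with no filter, 37 without the trend, 33 with a log2 difference over 1.2, and 21 to 188 with each library left out, with 21 and 28 without WT mice 1 and 2 and 121 and 188 without Kdm3b+/- mice 1 and 2.

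The replicate numbers in the labels belong to different animals, and deviations of same-numbered mice correlated at 0.121 (0.111 with the span correction, 0.0304 with the length and GC correction), over only 2 pairs. With the number as a replicate block, 600 genes were DEX, among them 2 adhesion genes (Cadm4 with an adjusted p of 0.0433 and Clstn1 with 0.0260) and 2 partner genes (Cbln3 and Unc5a). With the block and the span correction the numbers were 427, 0 and 1 (Cbln3), and with the block and the length and GC correction 332, 1 (Nlgn2, adjusted p of 0.0459) and 1 (Cbln1). These adjusted p-values are from limma.

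Depth enters TPM only through precision. The files hold no counts, so no counting interval was given for single values. The widest 95% interval of an adhesion gene was that of Lrrtm4, near 1 TPM, with a half-width of 0.57 on the log2 scale, which was 1.04 with a pseudocount of 0.1.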
